A study of Mus musculus with 8 samples.

Results

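The genes described here make, break down or sense extracellular ATP, adenosine and bioactive lipids in regulatory T cells (Tregs). They were chosen by name and matched to mouse gene symbols through the GENCODE annotation: the ectoenzymes Entpd1 and Nt5e, the adenosine deaminase gene Ada, the purine receptor genes Adora2a and P2rx7, and the receptor genes P2ry10, Ptger4, Gpr183 and Gpr83. These are 9 of the 20172 genes in the table, and all 9 were among the 13990 genes tested. RNA sequencing had been performed on TNFR2+ and TNFR2- Tregs from spleens of Foxp3 YFP-cre mice, in which YFP marks cells that express Foxp3, with 4 libraries of each population. CD4+ T cells were enriched and the YFP+ cells were sorted by surface TNFR2 in a flow cytometer, so that both groups share genotype, tissue and sort, received no treatment that the labels name, and differ by the TNFR2 gate. The study used male and female mice of 8 to 12 weeks. The labels do not say whether the 4 libraries of a group came from separate mice. The paper's legend for these data gives n = 4 beside the mice, without saying whether spleens were pooled. The p-values therefore measure the spread between libraries, which may be technical.

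ATP released by stressed, activated or dying cells acts as a danger signal through P2 receptors, among them the ATP-gated channel P2X7, which can kill T cells when it stays open. CD39 (Entpd1) cuts ATP and ADP to AMP, CD73 (Nt5e) cuts AMP to adenosine, and adenosine acts through the receptor encoded by Adora2a, which raises cyclic AMP and dampens T cell activation. Adenosine deaminase removes adenosine by turning it into inosine. The lipid receptors of the group include EP4 (Ptger4), which also raises cyclic AMP when prostaglandin E2 binds, and EBI2 (Gpr183), which guides lymphocytes along gradients of oxysterols.

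The 8 libraries had estimated depths of 9084000 to 12130000 reads. The gene for the sorted protein, Tnfrsf1b (chr4:145213463-145246870, GRCm38), was higher in TNFR2+ Tregs, with 2501 ± 544 normalized counts against 1321 ± 168 (SD, n = 4 each; log2 fold change 0.90, limma adjusted p = 0.00449). Treg markers were present in every library, with summed levels of the 8 genes listed of 32774 to 38302 normalized counts in TNFR2+ and 25216 to 30396 in TNFR2- Tregs. The sum differed mainly through Ikzf2 (means of 9763 and 5275) and Ctla4 (4436 and 2400), whereas Foxp3 (3126 and 3664, adjusted p = 0.232) and Il2ra (2742 and 3482, adjusted p = 0.0860) had the lower mean in TNFR2+ Tregs and did not pass. These are RNA levels. By flow cytometry, in cells sorted from another Foxp3 reporter strain, the paper reported more Foxp3 and CD25 (Il2ra) protein in TNFR2+ Tregs. On the second principal component TNFR2- replicate 3 stood apart at −91.32, with the other libraries between −17.96 and 39.08. The results below that rest on it are also given without it.

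Of the 9 genes, 4 passed the threshold of an adjusted p under 0.05 over all genes tested, where the background was 7.91% of all genes. The 9 were chosen with earlier results of these data known, so their share cannot be read as an enrichment. Nt5e, Adora2a and Ptger4 were higher in TNFR2+ Tregs (background 4.52%) and Gpr183 was lower (background 3.39%). The same 3 genes had every TNFR2+ library above every TNFR2- library (background 8.08%), and Gpr183 had every TNFR2+ library below (background 7.29%). Entpd1, Ada, P2rx7, P2ry10 and Gpr83 did not pass. The median log2 fold change of the 9 was 0.18, against −0.01 over all genes tested. Without TNFR2- replicate 3 the same 4 genes passed, with log2 fold changes of 1.34 for Nt5e, 1.35 for Adora2a, 0.49 for Ptger4 and −0.77 for Gpr183. These are levels in bulk RNA, in which fewer expressing cells and less RNA per cell cannot be told apart.

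**Figure D1:**
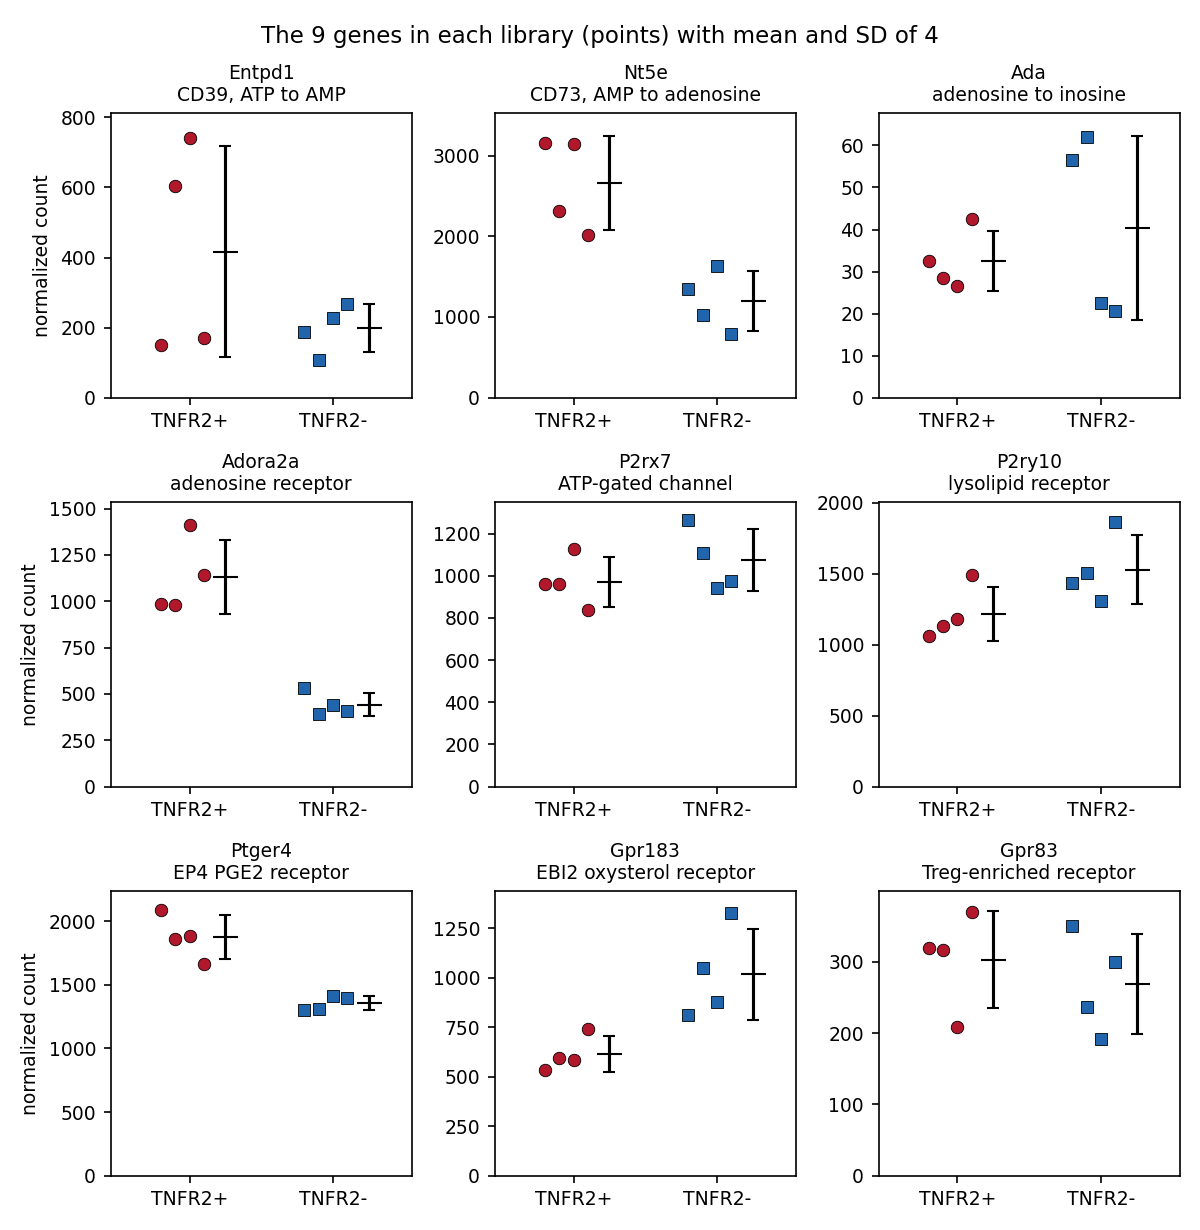
Normalized counts (vertical axes, from 0) of the 9 genes in the 4 TNFR2+ libraries (red circles) and the 4 TNFR2- libraries (blue squares), with bars for the mean ± SD of each group. Nt5e, Adora2a and Ptger4 separate upward, Gpr183 separates downward, and 2 of the 4 TNFR2+ libraries of Entpd1 stand at 603 and 742 while the others stand at 150 and 171.

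Among the ectoenzymes, Nt5e, the gene for CD73 (chr9:88327197-88372092, plus strand), showed the clearest difference. The TNFR2+ libraries held 3158, 2317, 3137 and 2015 normalized counts in replicates 1 to 4, and the TNFR2- libraries held 1346, 1022, 1635 and 790. The lowest TNFR2+ library lay above the highest TNFR2- library, and within each group the level varied by less than the difference between the group means. The means were 2657 ± 580 and 1198 ± 370 (SD, n = 4), a log2 fold change of 1.17 (SE 0.22, 95% interval 0.70 to 1.64), or 2.26-fold. Nt5e passed the threshold (limma adjusted p = 0.00506), and the exact two-sided permutation test over libraries gave p = 0.0286, the smallest that 4 libraries against 4 allow. It passed in all 8 fits that left out 1 library. A fit without an intensity trend in the variances gave an adjusted p of 0.0631.

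Entpd1, the gene for CD39 (chr19:40612366-40741602, plus strand), which acts one step before CD73, behaved differently. TNFR2+ replicates 1 to 4 held 150, 603, 742 and 171 normalized counts, and TNFR2- replicates 1 to 4 held 188, 108, 228 and 268. Thus TNFR2+ replicates 2 and 3 were above every TNFR2- library, while replicates 1 and 4 lay inside the range of the TNFR2- libraries. The highest TNFR2+ library was 4.95 times the lowest, against 2.49 times among the TNFR2- libraries, and the SD of 301 normalized counts was far above the 19.6 that counting error alone would give at that level. The log2 fold change was 0.80, with a 95% interval from −0.25 to 1.85 (limma adjusted p = 0.356; exact permutation p = 0.314). The interval includes no difference and also includes a rise as large as that of Nt5e. No fit that left out 1 library passed. The paper reported more CD39 protein in TNFR2+ Tregs by flow cytometry, a measure that RNA levels do not give.

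Ada, which encodes adenosine deaminase (chr2:163726584-163750239, minus strand), was the least abundant of the 9. Its values were 32.4, 28.4, 26.5 and 42.6 normalized counts in TNFR2+ replicates 1 to 4 and 56.6, 62.1, 22.4 and 20.7 in TNFR2- replicates 1 to 4. The TNFR2- libraries fell on both sides of the TNFR2+ libraries. The log2 fold change was −0.16 (95% interval −1.25 to 0.93, limma adjusted p = 0.889), and its sign turned without TNFR2- replicate 1 (0.05) or TNFR2- replicate 2 (0.10). On the fold scale the interval runs from 0.420 to 1.91, and a difference inside it was not detectable at this level.

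**Figure D2:**
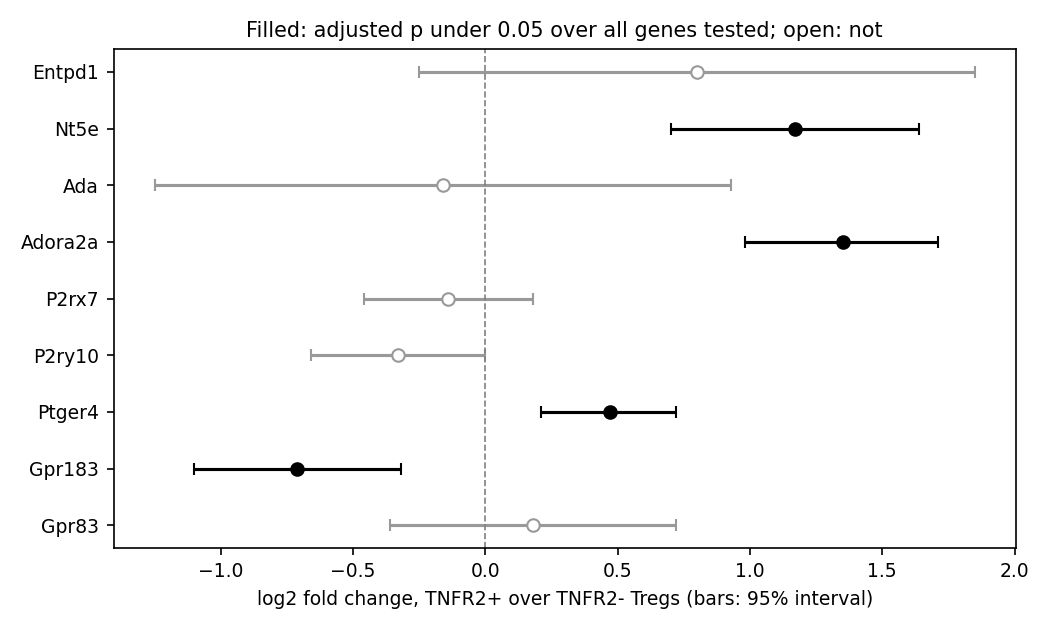
Log2 fold change of each gene, TNFR2+ over TNFR2- Tregs (horizontal axis), with its 95% interval from limma. Filled points passed an adjusted p of 0.05 over all genes tested, and their intervals run from 0.70 to 1.64 for Nt5e, 0.98 to 1.71 for Adora2a, 0.21 to 0.72 for Ptger4 and −1.10 to −0.32 for Gpr183.

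The adenosine receptor gene Adora2a (chr10:75316877-75334784, plus strand), through which adenosine raises cyclic AMP, had the largest fold change of the 9. TNFR2+ replicates 1 to 4 held 988, 982, 1411 and 1141 normalized counts, and TNFR2- replicates 1 to 4 held 532, 392, 440 and 407. The 2 groups did not overlap, and the 4 TNFR2- libraries lay close together. The means were 1130 ± 201 and 442 ± 62.8 (SD, n = 4), a log2 fold change of 1.35 (SE 0.17, 95% interval 0.98 to 1.71), or 2.54-fold. The limma adjusted p was 0.000514, and the exact permutation p was 0.0286. It was the only one of the 9 to pass under all 17 alternatives, with adjusted p-values of at most 0.0164.

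P2rx7 (chr5:122643911-122691432, plus strand), the gene for the ATP-gated channel, was at a similar level in both populations. Its values were 961, 962, 1128 and 839 normalized counts in TNFR2+ replicates 1 to 4 and 1264, 1110, 942 and 975 in TNFR2- replicates 1 to 4. The groups overlapped over most of their range. The log2 fold change was −0.14 (limma adjusted p = 0.628), and its 95% interval of −0.46 to 0.18 contains no change as large as that of Adora2a. Of the 18 purine receptor genes listed (4 adenosine receptors among them), only Adora2a, P2rx4 and P2rx7 had a mean of at least 10 normalized counts over the 8 libraries. P2rx4, which also encodes an ATP-gated channel, held 193, 223, 149 and 183 normalized counts in TNFR2+ replicates 1 to 4 and 191, 256, 269 and 234 in TNFR2- replicates 1 to 4. Its groups overlapped, and it did not pass (log2 fold change −0.34, limma adjusted p = 0.390). Among the 10 others in the table the highest mean was 9.47, for P2rx1, another ATP-gated channel, so the main fit did not test them. P2rx1 held 4.64, 2.99, 0 and 0 normalized counts in TNFR2+ replicates 1 to 4. In TNFR2- replicates 1 to 4 it held 27.9, 5.03, 8.22 and 27.0, values near the floor but without overlap. With no filter on low values, 13 purine receptor genes were tested and only Adora2a passed. Adora1 had a mean of 2.17 and Adora3 of 4.18, and Adora2b was not found among the genes in the table.

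P2ry10 (chrX:107088492-107104974, plus strand), named as a purine receptor but known as a receptor for lysophosphatidylserine, held 1062, 1135, 1182 and 1494 normalized counts in TNFR2+ replicates 1 to 4. TNFR2- replicates 1 to 4 held 1436, 1509, 1306 and 1869. TNFR2+ replicate 4 lay among the TNFR2- libraries, and the other TNFR2+ libraries lay below all of them. The log2 fold change was −0.33 (95% interval −0.66 to 0.00), and it did not pass (limma adjusted p = 0.218; exact permutation p = 0.0857).

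Ptger4 (chr15:5206661-5244187, minus strand), the gene for the prostaglandin E2 receptor EP4, was modestly higher in TNFR2+ Tregs. TNFR2+ replicates 1 to 4 held 2092, 1859, 1884 and 1666 normalized counts, and TNFR2- replicates 1 to 4 held 1301, 1313, 1411 and 1393. Every TNFR2+ library was above every TNFR2- library, and the TNFR2- libraries differed little among themselves. The means were 1875 ± 175 and 1355 ± 55.8 (SD, n = 4), a log2 fold change of 0.47 (SE 0.12, 95% interval 0.21 to 0.72), or 1.38-fold. The limma adjusted p was 0.0293 and the exact permutation p was 0.0286. The call was lost when 1 library was left out in 5 of 8 fits, with adjusted p-values of 0.0915, 0.0779 and 0.0741 without TNFR2+ replicates 1, 2 and 3, and of 0.0695 and 0.0754 without TNFR2- replicates 1 and 2. The log2 fold change stayed between 0.41 and 0.52 in these 8 fits. Without an intensity trend the adjusted p was 0.114.

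Gpr183 (chr14:121952551-121965195, minus strand), the gene for the oxysterol receptor EBI2, was the one gene of the 9 that was lower in TNFR2+ Tregs past the threshold. TNFR2+ replicates 1 to 4 held 536, 594, 587 and 742 normalized counts, and TNFR2- replicates 1 to 4 held 811, 1050, 878 and 1330. The highest TNFR2+ library was below the lowest TNFR2- library, and TNFR2- replicate 4 was the highest of all. The means were 615 ± 88.8 and 1017 ± 232 (SD, n = 4), a log2 fold change of −0.71 (SE 0.18, 95% interval −1.10 to −0.32), which put TNFR2- Tregs 1.64-fold higher. The limma adjusted p was 0.0283 and the exact permutation p was 0.0286. The call was lost in 5 of 8 fits that left out 1 library, with adjusted p-values of 0.0832, 0.0756 and 0.0759 without TNFR2+ replicates 1, 2 and 3, and of 0.0783 and 0.0719 without TNFR2- replicates 2 and 4. The adjusted p was 0.105 without an intensity trend and 0.0502 with every library scaled to the same sum. The gene lies inside Ubac2 on the opposite strand, and whether the authors' quantification used strand is not given in the sources used here.

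Gpr83 (chr9:14860210-14870789, plus strand), a G protein-coupled receptor gene known as a Treg-enriched transcript, held 319, 316, 208 and 370 normalized counts in TNFR2+ replicates 1 to 4 and 350, 236, 191 and 299 in TNFR2- replicates 1 to 4. Replicate 3 was the lowest in both groups, and the groups overlapped throughout. The log2 fold change was 0.18 (95% interval −0.36 to 0.72, limma adjusted p = 0.723).

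**Figure D3:**
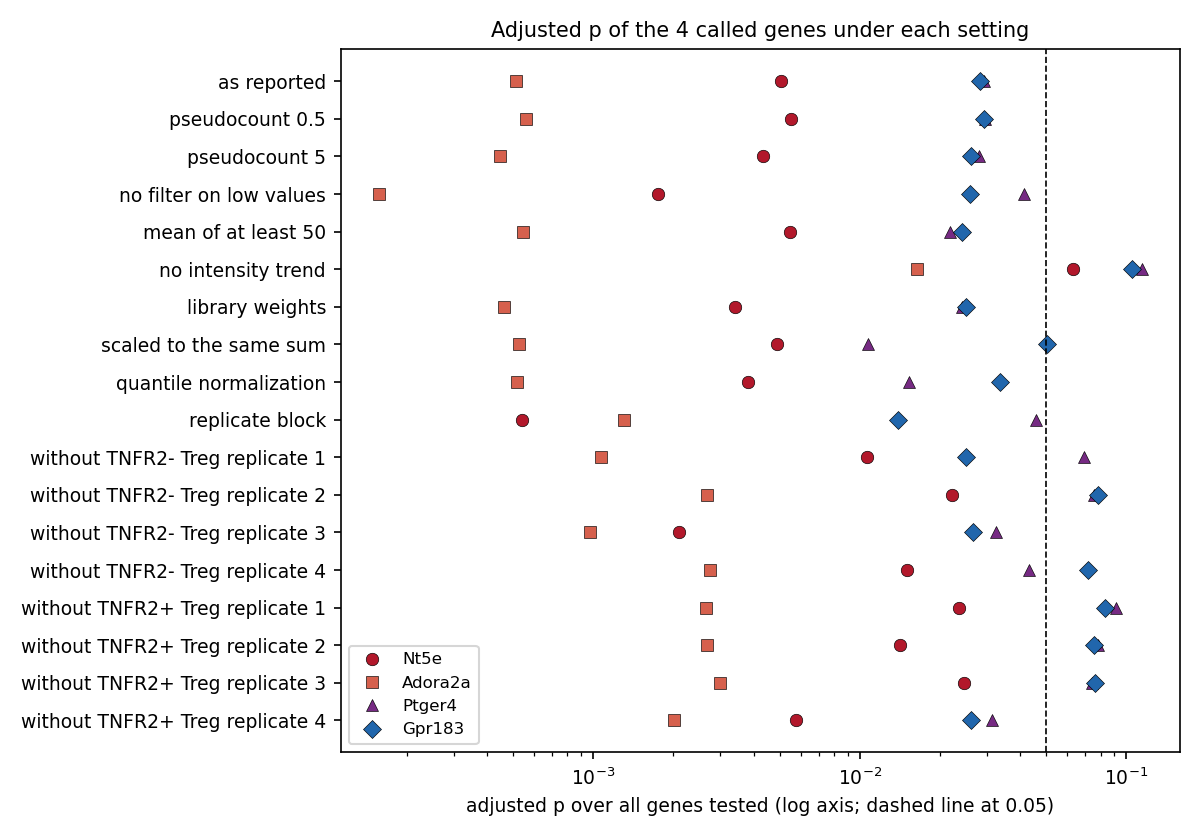
Adjusted p (horizontal log axis, threshold of 0.05 dashed) of Nt5e, Adora2a, Ptger4 and Gpr183 as reported and under each of 17 alternatives (rows). Adora2a stays left of the line in every row, Nt5e crosses it only without an intensity trend, and Ptger4 and Gpr183 cross it in 6 and 7 rows.

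Per kilobase of coding transcript, the order of the levels differed between the populations. In TNFR2+ Tregs Adora2a was highest at 1085 ± 193 normalized counts per kilobase, followed by Nt5e at 665 ± 145 and Ptger4 at 570 ± 53.1. P2ry10 (438 ± 68.5), P2rx7 (416 ± 50.9) and Gpr183 (398 ± 57.6) came next, then Entpd1 (209 ± 151), Gpr83 (92.9 ± 20.9) and Ada (19.2 ± 4.26). In TNFR2- Tregs Gpr183 led at 660 ± 150, ahead of P2ry10 (550 ± 86.6), P2rx7 (459 ± 62.8), Adora2a (425 ± 60.2), Ptger4 (412 ± 17.0) and Nt5e (300 ± 92.5), with Entpd1 (99.2 ± 34.3), Gpr83 (82.5 ± 21.5) and Ada (24.0 ± 13) last. In TNFR2+ Tregs the neighbours that differed by more than the sum of their SDs were Adora2a and Nt5e, Ptger4 and P2ry10, and Gpr83 and Ada. In TNFR2- Tregs they were Ptger4 and Nt5e, Nt5e and Entpd1, and Gpr83 and Ada, while the steps from Gpr183 to P2ry10, P2rx7, Adora2a and Ptger4 in turn were each smaller than that sum. These levels use the mean length of a gene's protein-coding transcripts. With the longest one, Adora2a fell to 435 in TNFR2+ and 170 in TNFR2- Tregs, behind Nt5e (665) and Ptger4 (566) in TNFR2+ Tregs, so its first place depends on the transcript length. By that length P2ry10 (530) led in TNFR2- Tregs, ahead of Ptger4 (409), Gpr183 (374) and Nt5e (300), and P2rx7 stood at 217.

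The proximal promoters of Ptger4 and Gpr183, receptor genes that moved in opposite directions, are shown because they differ in base composition and in the short motifs searched. Each is the 250 bases before the RefSeq start (GRCm38.p6), 5′ to 3′ on the minus strand, chr15:5244188-5244437 for Ptger4 and chr14:121965194-121965443 for Gpr183. The Ptger4 window lies outside annotated genes, and the Gpr183 window lies inside Ubac2, outside its exons, with 2 bases in the first GENCODE exon of Gpr183. Capitals mark motif matches.
Ptger4: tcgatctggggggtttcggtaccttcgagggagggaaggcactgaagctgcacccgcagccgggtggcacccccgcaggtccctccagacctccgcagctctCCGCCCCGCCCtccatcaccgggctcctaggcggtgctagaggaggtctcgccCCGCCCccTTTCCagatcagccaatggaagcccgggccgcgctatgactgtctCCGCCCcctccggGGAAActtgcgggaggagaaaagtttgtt
Gpr183: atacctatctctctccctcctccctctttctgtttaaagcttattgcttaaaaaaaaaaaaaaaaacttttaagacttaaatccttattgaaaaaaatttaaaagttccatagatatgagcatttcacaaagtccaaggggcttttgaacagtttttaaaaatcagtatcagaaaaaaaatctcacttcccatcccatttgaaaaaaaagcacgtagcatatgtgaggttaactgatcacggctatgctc

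Motifs were searched on both strands in 250 bases before each start, for TGACG (the cAMP response element half-site), GGAAA (the NFAT core), TGTTTAC (a forkhead core) and GGGCGG (the GC box). The Ptger4 window held 4 GC boxes, all on the reverse strand and therefore read as CCGCCC, of which 2 share a base, and 2 NFAT cores, 1 on each strand. The Gpr183 window held none of the 4 motifs, and its GC content was 32.0% against 66.8% for Ptger4 and a median of 52.4% over 32851 mouse promoters. Among the genes that did not pass, GC content ran from 38.4% in a P2ry10 window to 67.2% for Ada. GC boxes were also found in windows of Nt5e, Ada and P2rx7, and NFAT cores in windows of Ada, P2rx7, Entpd1 and P2ry10. Of all promoters, 32.7% held a GC box, 55.6% an NFAT core, 17.8% a cAMP half-site and 3.17% a forkhead core, so single matches are common. No forkhead core was found in any of the 11 windows of the 8 genes that matched (Adora2a did not). A cAMP half-site was found in the Gpr83 window, 67 bases before the start, in both Entpd1 windows, 131 and 179 bases before, and in the second P2ry10 window, 99 bases before. A match describes these letters and was not tested as a binding site.

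Other genes of the pathways were taken from 10 lists that together hold 218 genes, of which 141 were tested. Of these, 12 were higher and 16 were lower past the threshold, and the median log2 fold change was −0.04. All counts below stand beside the 4.52% of all genes tested that were higher and the 3.39% that were lower. The lists too were chosen with earlier results of these data known, so the counts describe them and test no enrichment. Without TNFR2- replicate 3 the counts of the lists were the same, except that no other receptor of this class was higher and 1 gene of adenosine disposal was lower.

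Of 14 tested genes on the ectoenzyme list, Nt5e and Cd38 were higher past the threshold and none was lower, with a list median of −0.15. At an unadjusted limma p under 0.05, 4 were higher and 2 were lower. The 2 lower genes, Enpp1 and Entpd5, had every TNFR2+ library below every TNFR2- library (log2 fold changes −0.65 and −0.68, limma adjusted p = 0.0962 and 0.102). Cd38, which encodes an NAD-consuming ectoenzyme that feeds the same AMP pool by another route, held 136, 123, 189 and 239 normalized counts in the TNFR2+ libraries and 39.3, 50.3, 96.4 and 63.7 in the TNFR2- libraries. The groups did not overlap (log2 fold change 1.47, adjusted p = 0.0209), and the call was lost without TNFR2+ replicate 3 or 4 or TNFR2- replicate 1 or 2, with adjusted p-values of up to 0.0697. None of the 5 tested Entpd family genes passed. Among 18 tested genes of adenosine transport and disposal limma called none, 1 in each direction had an unadjusted p under 0.05, and the list median was −0.02. The lower one was Ampd1, with 2.12 and 42.4 normalized counts on average in TNFR2+ and TNFR2- Tregs (log2 fold change −3.76, limma adjusted p = 0.0574). Its groups overlapped, and it passed in 5 of 16 alternatives. The higher one was Ampd2 (log2 fold change 0.84, limma adjusted p = 0.085), which passed in none. Adk, which phosphorylates adenosine back to AMP, held 218 and 162 normalized counts on average (adjusted p = 0.364).

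Of 8 tested genes for ATP release, 2 were lower and none was higher (median −0.06). Slc17a9, the vesicular nucleotide transporter that loads ATP into vesicles, held 85.5 ± 13.8 normalized counts in TNFR2+ and 252 ± 71.1 in TNFR2- Tregs (log2 fold change −1.51, adjusted p = 0.00605), and passed in all 8 fits without 1 library. Lrrc8a, a subunit of volume-regulated anion channels, held 303 ± 48.8 and 527 ± 78.8 (log2 fold change −0.80, adjusted p = 0.0206), and its call was lost without TNFR2+ replicate 1 or 2 or TNFR2- replicate 2 or 4, with adjusted p-values of up to 0.0691.

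Downstream of the Adora2a product and EP4, 7 of 30 tested genes of cyclic AMP synthesis, breakdown and response were lower in TNFR2+ Tregs and none was higher, with a list median of 0.00. The members that moved do not share 1 function. Adcy6 and Adcy9, which make cyclic AMP, fell by 2.09 (adjusted p = 0.000733) and by 1.61 (adjusted p = 0.0159) on the log2 scale, whereas Pde3b, Pde1b and Pde4b, which break it down, fell by 2.81 (adjusted p = 0.00203), by 0.91 (adjusted p = 0.0198) and by 0.55 (adjusted p = 0.0149). Rapgef4, a cyclic AMP-activated exchange factor, had −2.11 (adjusted p = 0.0363), and the seventh gene, Pde4d, named for completeness of the count, had −0.45 (adjusted p = 0.0494).

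Adcy6 held 51.6, 56.3, 43.5 and 79.6 normalized counts in TNFR2+ replicates 1 to 4 and 244, 238, 287 and 211 in TNFR2- replicates 1 to 4, and the more abundant cyclase Adcy7 held 1459 and 1323 on average (adjusted p = 0.528). Pde3b held 29.8, 11.4, 20.6 and 32.6 against 109, 127, 158 and 298. In both genes every TNFR2- library stood well above every TNFR2+ library. None of the 6 protein kinase A subunit genes passed. The phosphodiesterase gene Pde7a and Gnas had every TNFR2+ library above every TNFR2- library. Neither passed (log2 fold changes 0.68 and 0.27, limma adjusted p = 0.0582 and 0.135). The count of 7 fell to 3 without TNFR2+ replicate 2, TNFR2- replicate 1 or TNFR2- replicate 2, to 4 without TNFR2+ replicate 1 or TNFR2- replicate 4, and to 3 without an intensity trend. With every library scaled to the same sum, 2 genes of the list were higher and 6 were lower. A count of 1 higher came with quantile normalization, with the replicate block, at a minimum mean of 50, and without TNFR2- replicate 1. Adcy6, Pde3b and Pde4b passed in all 8 fits without 1 library. Adcy9 lost its call without TNFR2+ replicate 2 or TNFR2- replicate 1 or 2 (adjusted p up to 0.0607), and Pde1b and Rapgef4 lost theirs without TNFR2+ replicate 1 or 2 or TNFR2- replicate 1, 2 or 4 (up to 0.0672 and 0.103). Pde4d passed only without TNFR2- replicate 3, and its adjusted p reached 0.141.

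**Figure D4:**
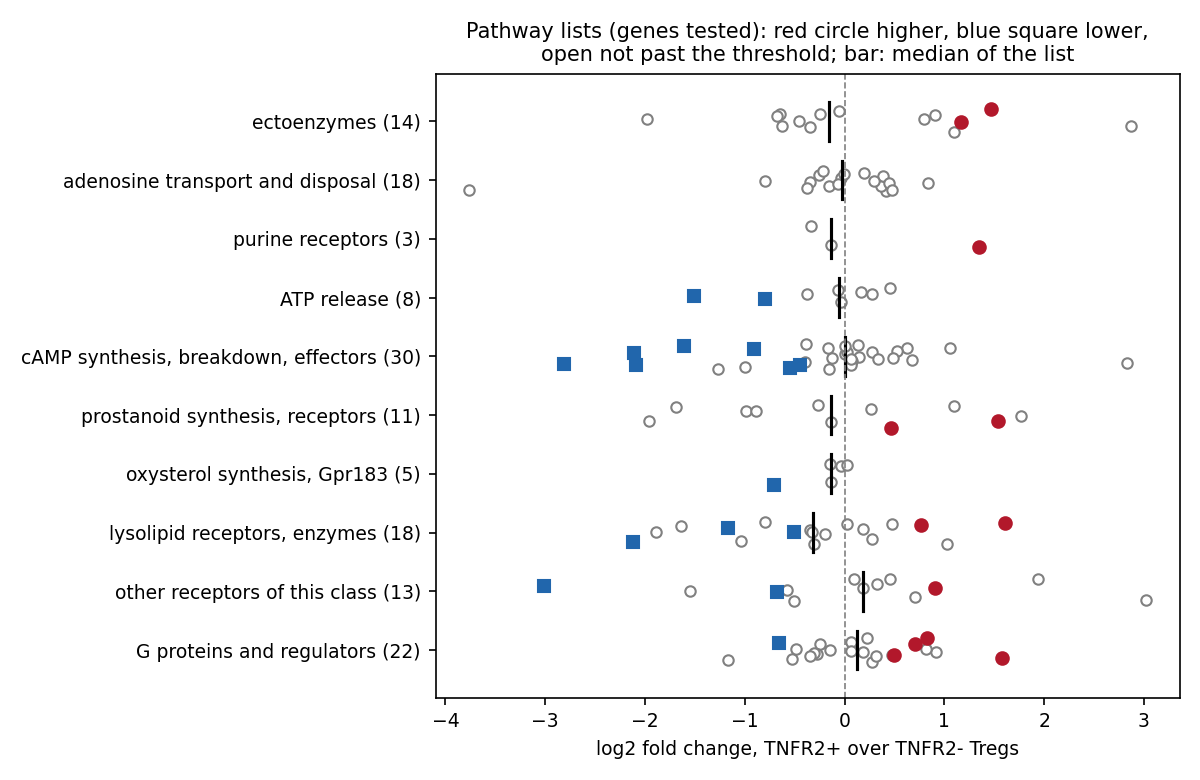
Log2 fold change, TNFR2+ over TNFR2- Tregs (horizontal axis), of every tested gene in 10 pathway lists (rows, number tested in parentheses), with red circles higher, blue squares lower and open circles not past an adjusted p of 0.05; black bars are list medians. Blue squares gather in the cyclic AMP row (7 of 30), while red circles outnumber blue squares for G proteins and their regulators (4 against 1).

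Among 11 tested prostanoid genes, both prostaglandin E2 receptor genes that raise cyclic AMP, Ptger2 and Ptger4, were higher (list median −0.14). Ptger2 (EP2) held 293, 298, 378 and 234 normalized counts in the TNFR2+ libraries and 122, 51.8, 223 and 75.5 in the TNFR2- libraries. Its groups lay next to each other without overlap, with TNFR2- replicate 3 just below the lowest TNFR2+ library (log2 fold change 1.54, adjusted p = 0.0252). The Ptger2 call was lost without TNFR2+ replicate 1, 2 or 3 or TNFR2- replicate 2 or 4, with adjusted p-values of up to 0.0853. The count for the list fell to 0 without TNFR2+ replicate 2 or 3 or TNFR2- replicate 2, and to 1 without TNFR2+ replicate 1 or TNFR2- replicate 1 or 4. Hpgds, the prostaglandin D2 synthase, held 104 and 28.0 normalized counts on average and did not pass (adjusted p = 0.0583). Among the 8 fits without 1 library, Hpgds passed only without TNFR2+ replicate 1 (adjusted p = 0.0194). There it was the 1 gene of the list called, as both receptor genes lost their calls. Of 5 tested oxysterol genes only Gpr183 passed. Hsd3b7, which degrades the ligand of EBI2, held 80.1 and 66.9 normalized counts on average (adjusted p = 0.989).

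Among 18 tested genes of lysolipid sensing, 3 were lower and 2 were higher (median −0.32). S1pr1, the sphingosine-1-phosphate receptor that lets lymphocytes leave lymphoid organs, held 637 ± 154 normalized counts in TNFR2+ and 2771 ± 634 in TNFR2- Tregs, and S1pr4 held 150 ± 20.7 and 351 ± 112. Both were lower in TNFR2+ Tregs (log2 fold changes −2.12 and −1.17, adjusted p = 7.9e-05 and 0.0140), as Gpr183 was. S1pr4 reached 0.0532 without TNFR2- replicate 2. Gpr132 was lower (log2 fold change −0.51, adjusted p = 0.0422), although its groups overlapped. Sgpl1, which degrades sphingosine-1-phosphate, and Gpr55, a receptor for lysophosphatidylinositol, were higher (0.77 and 1.61, adjusted p = 0.0305 and 0.0362). Gpr132, Sgpl1 and Gpr55 each passed in only 2 of the 8 fits without 1 library. Gpr132 passed only without replicate 3 of either group, Sgpl1 only without TNFR2- replicate 3 or 4, and Gpr55 only without TNFR2- replicate 1 or 3, and their adjusted p-values reached 0.120, 0.0958 and 0.103.

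Of 13 other tested genes for receptors of this class, Gpr65, a proton-sensing receptor that raises cyclic AMP, was higher, and Adgre5 (CD97) and Gpr146 were lower (list median 0.18). In log2 terms Gpr65 differed by 0.91 (adjusted p = 0.0454), Adgre5 by −0.68 (adjusted p = 0.00398) and Gpr146 by −3.01 (adjusted p = 0.00695). The Gpr65 call held only without TNFR2+ replicate 4 or TNFR2- replicate 1, and its adjusted p reached 0.137 without TNFR2+ replicate 3. Gpr146 held 4.95, 46.0, 38.6 and 42.3 normalized counts against 262, 193, 145 and 271. Of 22 tested G protein and regulator genes, 4 were higher and 1 was lower (median 0.12). Rgs16, Rgs2 and Rgs1, whose products shorten G protein signals, had log2 fold changes of 1.58, 0.71 and 0.50 (adjusted p = 0.00308, 0.00708 and 0.0122). Gna12 was higher (0.83, adjusted p = 0.0235) and lost its call without replicate 2 or 4 of the TNFR2- group or replicate 2 or 3 of the TNFR2+ group (adjusted p up to 0.0812), and the receptor kinase gene Grk6 was lower (−0.66, adjusted p = 0.00483).

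By the shape of their values over the 8 libraries, the tested protein-coding genes nearest to each called gene were Batf and Cd81 for Nt5e, Cxcr3 and Hivep3 for Adora2a, Snx2 and Snrpe for Ptger4, and Pacs1 and Evl for Gpr183. Likeness was the root mean square difference of centred log2 values among 11523 genes. It was 0.150 and 0.154 for Nt5e, 0.178 and 0.187 for Adora2a, 0.082 and 0.090 for Ptger4, and 0.091 and 0.104 for Gpr183. Cxcr3, a chemokine receptor gene, held 361 and 136 normalized counts on average, and Batf, a transcription factor gene, held 499 and 206.

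Markers of other cell types were read beside these results. The B cell list (10 of 13 genes in the table) summed to 3999 to 6088 normalized counts in TNFR2+ and 1799 to 2939 in TNFR2- libraries, in the same direction as Nt5e, Adora2a and Ptger4. Most of that sum was Ighm, with 4608 ± 883 against 1911 ± 391 (adjusted p = 0.000745). Of the 6 genes of the list that were tested, 5 had a log2 fold change above 0, with a median of 1.07. Cd22 held 309 and 150 normalized counts on average, without overlap of the groups (log2 fold change 1.20, adjusted p = 0.0612), Ighd held 57.3 and 26.4 (1.37, adjusted p = 0.162), and Cd79b held 38.7 and 24.7 (0.94, adjusted p = 0.528). The defining marker Cd79a was near 0, with means of 1.19 and 3.17, and Ms4a1 had means of 57.5 and 55.4. Ighm was the only tested gene of the list to pass, and the part of such RNA in the values of Nt5e, Adora2a and Ptger4 was not tested. Of the cytotoxic cell list (6 of 9 in the table), which summed to 111 to 220 and 59.6 to 132, only Nkg7 passed, with 64.3 ± 19.3 against 7.83 ± 7.29 (adjusted p = 0.00927), while Cd8a had means of 6.95 and 9.57. The myeloid list (9 of 16) summed to 274 to 508 and 240 to 466, the platelet list (1 of 5) to 12.2 to 221 and 31.2 to 178, and the erythroid list (1 of 7) to 0 to 12.1 and 0 to 10.6, with overlapping groups. None of the genes of those last 3 lists passed.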

How the data were processed

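RNA was sequenced from sorted splenic TNFR2+ and TNFR2- Tregs, 4 libraries each. Stranded total RNA libraries were made with the SMARTer Pico kit, and the authors trimmed the reads, ran salmon 1.3.0 on the GRCm38 transcriptome, and scaled the gene totals with DESeq2 1.28. What they deposited is this normalized signal for each gene, not raw counts, so no count model was fitted. In single-transcript genes low values lay within 0.1 of whole multiples of a step in 68.8% to 96.1% of cases (20% by chance), which gave the estimated depths.

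Log2(value + 1) was tested with limma 3.58.1 (R 4.3.3; moderated, with an intensity trend) in the 13990 genes with a mean of at least 10, with Benjamini-Hochberg adjustment over all of them and a threshold of 0.05. Fold changes on this scale are differences of mean log2 values. In low genes they depend on the added 1 and on single low libraries, and can be larger or smaller than the ratio of the group means. The script was tested on simulated data. The members and lists were chosen with earlier results of these data known. The genes named were all 9 members, up to 6 genes past the threshold of each pathway list by adjusted p, the 2 genes nearest in pattern to each called member, and Tnfrsf1b. Other genes were named after their values were seen, for context. GENCODE M21 matched 20008 of 20172 identifiers. Replicate numbers are shared in the labels, and same-numbered libraries deviated with correlations of −0.039 to 0.001 over all genes tested. The main fit did not pair them. Such correlations cannot show whether same-numbered libraries share a source, so a fit with a replicate block was run as an alternative. The exact permutation test used 70 relabellings. No near-identical copy of a member was found (95% identity over 50% of a transcript, blastn 2.17.0).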

Additional observations from a re-analysis of the deposited data

Results flagged for a closer look

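Pde4b, a phosphodiesterase that breaks down cyclic AMP, held 2573 normalized counts in TNFR2- replicate 4, while the other TNFR2- libraries held 2015 to 2064. The gap was 0.912 of the range of the group, above Dixon's 95% critical value for 4 libraries. It was the only such value in 64 groups of 4 libraries over 32 named genes, and chance marks about 1 in 20. The gene passed the threshold in all 8 fits without 1 library, that library included.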

How the results depend on the processing

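The log2 fold changes of 8 of the 9 genes kept their sign under all 17 alternatives, and Ada, which was never called, ran from −0.42 to 0.10 when each library was left out in turn. Without an intensity trend, the genes past the threshold fell from 1107 to 465 and the members past it from 4 to 1, Adora2a. Leaving out each library in turn gave 642 to 1301 genes and 2 to 4 members. The replicate block gave 1183 genes and 4 members and changed no member's call. With it the limma adjusted p of Nt5e and Gpr183 fell to 0.000542 and 0.0139. Those of Adora2a and Ptger4 rose to 0.0013 and 0.0456. With every library scaled to the same sum the median of all genes moved from −0.01 to 0.12, the share of calls that were higher from 57.2% to 74.5%, and Gpr183 lost its call (adjusted p = 0.0502). With no filter on low values the median of the purine receptor list moved to −0.34. The median of the prostanoid list turned from −0.14 to 0.26 at a minimum mean of 50. That of the G proteins and regulators went from 0.12 to 0.25 with every library scaled to the same sum. Of the 23 pathway genes named by the rule, 23 kept their direction everywhere, 11 passed in every fit without 1 library, and 5 passed without an intensity trend. Depth limits Ada most, whose mean was under 50 and which was not tested at that minimum.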
